A study of Rattus norvegicus with 26 samples.

Results

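The comparison described here set fetal rat hepatocytes sorted as LAP+/OC2+ against fetal rat hepatocytes sorted as LAP+/OC2-, both taken before transplantation. The 4 LAP+/OC2+ libraries (replicates 1, 2, 3 and 4) and the 4 LAP+/OC2- libraries (replicates 1, 3, 4 and 5) were chosen by their sample titles, and together they are 8 of the 26 samples of the series. Only nuclear features entered the comparison, because the share of counts on mitochondrial features differed strongly between the sorts. The study profiled RNA of sorted fetal and adult hepatocytes before transplantation, and of colonies and host tissue after it. The 4 unsplit LAP+ fetal libraries and the 4 adult hepatocyte libraries are used below as reference levels, and the samples taken after transplantation were not used. Both OC2 sorts carry the labels fetal and hepatocyte and share the LAP+ selection, and RNA came from pellets of immunopurified cells. The labels give no strain, genotype, sex, gestational day or treatment for these samples, and they do not spell out LAP or OC2. They call the replicates biological without saying whether each came from a separate animal or litter, so p-values measure the spread between these samples, part of which may be technical.

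The fetal liver is both the site where hepatocytes mature and, for much of gestation, a main site of blood cell formation, so hepatocyte precursors lie among developing blood cells. Surface markers are used to separate such cells, and a sort that splits a population on a second marker asks whether the fractions are alike. As hepatocytes mature they give a growing share of their RNA to a few abundant transcripts for secreted plasma proteins and for metabolism. The deposited files identify genes by Ensembl rat gene identifiers only, and the reference table at hand paired 0 of the 32552 identifiers with a symbol. Cell types could therefore not be checked by marker genes, and the labelled cell type is used as given. Apart from 4 genes named by identifier, genes are described by chromosome, start and end as deposited, and the sources used here do not name the genome build.

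The sorts differed first in composition. LAP+/OC2+ libraries held 78.6%, 73.7%, 57.6% and 38.9% mitochondrial counts in replicates 1 to 4, and LAP+/OC2- libraries held 4.27 to 5.92%. The difference was 57.3 percentage points (exact two-sided permutation test, p = 0.029, the smallest that 4 against 4 allows). After adjustment over the 5 measures of composition tested, p was 0.029 in the same test. This difference was known when the comparison was limited to nuclear features, so its p-value is a description only. After mitochondrial features were removed, 1917734, 2331228, 3336294 and 5045098 nuclear counts remained in the LAP+/OC2+ libraries against 14584021 to 16060210 in the LAP+/OC2- libraries. Mitochondrial share, nuclear depth and sort cannot be told apart as sources of a difference. In bulk RNA, fewer cells of a type and less RNA per cell cannot be told apart either.

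Nuclear RNA was spread over more genes in LAP+/OC2+ cells. The 20 most abundant nuclear genes took 16.9%, 19.5%, 21.8% and 21.2% of nuclear counts in LAP+/OC2+ libraries 1 to 4, and 34.1%, 37.3%, 39.7% and 39.9% in the LAP+/OC2- libraries. The effective number of genes (the exponential of the Shannon entropy of the counts) was 2111 ± 343 (SD, n = 4) against 819.5 ± 142 (SD, n = 4). With every library thinned to 1917734 nuclear counts, 15163 to 17168 genes were detected in LAP+/OC2+ and 14028 to 14524 in LAP+/OC2- libraries. Genes of 1 exon took 2.41% ± 0.289 (SD, n = 4) of nuclear counts against 1.62% ± 0.167 (SD, n = 4). For each of these measures the groups did not overlap (exact two-sided permutation tests, p = 0.029 and adjusted p = 0.029).

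**Figure D1:**
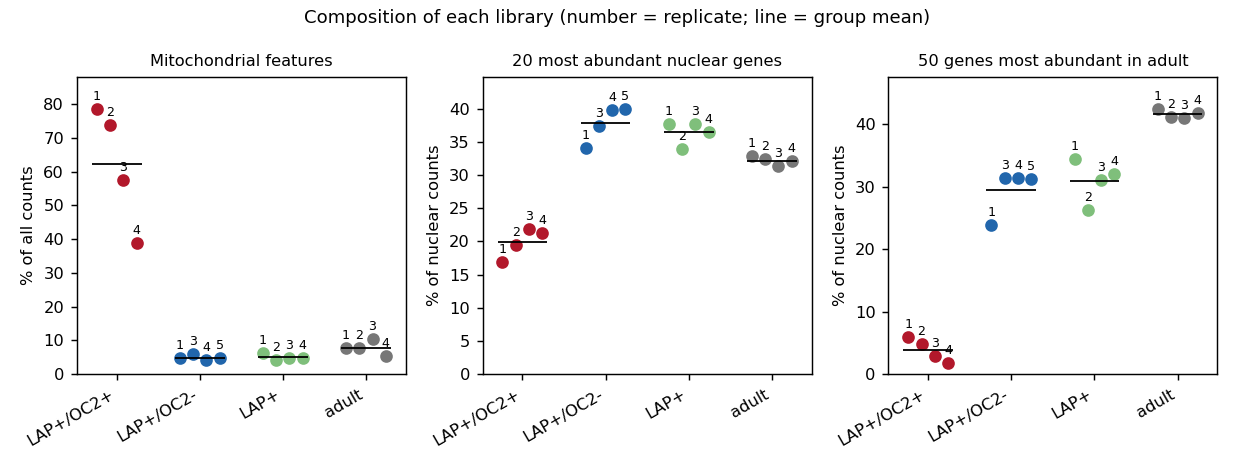
Share of counts per library (%, vertical axes from 0) on mitochondrial features, on the 20 most abundant nuclear genes of that library, and on the 50 genes most abundant in adult hepatocytes, for the 4 groups on the horizontal axis. Points are libraries numbered by replicate and lines are group means; the LAP+/OC2+ libraries stand at 38.9 to 78.6% mitochondrial counts and at 1.73 to 5.95% for the adult genes, apart from the other 3 groups in both panels.

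LAP+/OC2+ libraries also varied more among themselves. Their lower nuclear depth adds counting noise, the sorts were not matched in depth here, and the part of depth was not tested. Across nuclear genes, the correlation of log expression between libraries was 0.919 to 0.97 within LAP+/OC2+ (6 pairs), 0.969 to 0.989 within LAP+/OC2- (6 pairs) and 0.673 to 0.765 between the sorts (16 pairs); genes are not independent replicates. Over the 1886 genes at 50 nuclear CPM or more in both sorts (CPM, counts scaled to a nuclear total of 1000000 per library), the median coefficient of variation was 20.3% in LAP+/OC2+ and 12% in LAP+/OC2- libraries, and it was the larger in LAP+/OC2+ for 1381 genes. Over the 12 pairs of libraries within a sort, counts differed by more than sampling noise, with a chi-square of 4.47 to 57.9 for each degree of freedom.

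A trace of adult-abundant transcripts was present in both sorts, at levels that set libraries apart. These genes were picked after their values were seen: 27 genes at 500 nuclear CPM or more in adult hepatocytes and under 0.5% of that level in LAP+ cells. Their median level was 1.55%, 0.544%, 1.03% and 0.658% of the adult mean in LAP+/OC2+ libraries 1 to 4, and 0.688 to 1.31% in the LAP+/OC2- libraries. In the 4 LAP+ libraries it was 0.00537 to 0.0267%. Of the 27 genes, 0 were called higher, 1 was called lower and 26 were not called between the sorts, where 67.2% of all tested genes were called.

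Among these genes LAP+/OC2+ library 2 followed adult library 2. The gene at chr1:148053687-148119857 stood at 16.2, 78.1, 9.29 and 6.74 nuclear CPM in LAP+/OC2+ libraries 1 to 4 and at 1468, 6431, 1021 and 1519 in adult libraries 1 to 4. The gene at chr5:77405142-77903113 stood at 37.5, 0.429, 26.7 and 12.9 nuclear CPM in LAP+/OC2+ and at 2515, 12.5, 3104 and 2272 in adult libraries. In both, library 2 lay on the same side of the others in the adult and in the LAP+/OC2+ group, while the LAP+/OC2- libraries were within 17.5 to 30.5 and 13.2 to 27.8 nuclear CPM. Over the 27 genes, the deviations of LAP+/OC2+ library 2 from its group correlated at 0.97 with those of adult library 2. Since deviations are taken from the mean of 4 libraries, the values for the other libraries mirror this one and add nothing separate. For LAP+/OC2- libraries the correlations with adult libraries lay between -0.43 and 0.46. The labels tie no fetal library to an adult one, and the source of this trace was not tested.

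Most tested genes differed between the sorts. Of 32517 nuclear features, 13121 had enough counts to be tested, and 8817 (67.2%) were called by edgeR's quasi-likelihood test, with p adjusted over all tested genes by the Benjamini-Hochberg method and a threshold of 0.05. LAP+/OC2+ levels were higher for 4428 genes (33.7%) and lower for 4389 (33.5%). Of all tested genes, 3312 (25.2%) were called higher by 2-fold or more and 3125 (23.8%) lower. Large increases outnumbered large decreases: 717 genes were higher by a log2 difference of at least 3 and 399 by at least 4, against 401 and 54 genes lower. However, 3 counts equal 0.595 to 1.56 nuclear CPM in LAP+/OC2+ libraries and 0.187 to 0.206 in LAP+/OC2- libraries. A large decrease could thus be measured only in more abundant genes than an equally large increase. With LAP+/OC2- counts thinned to the mean LAP+/OC2+ nuclear total, 3876 of 11078 tested genes were called higher and 3542 lower. The part of depth in the numbers of large differences was not tested.

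The balance of the calls depends on scaling. Levels in nuclear CPM are plain shares of nuclear counts, whereas fitted log2 differences use TMM scaling and lie 0.39 lower at the median. Without that scaling 5499 genes were higher and 3001 lower, so that 64.7% of calls were higher in place of 50.2%. Log2 differences and calls below are relative to the TMM scale, where the median over all tested genes was -0.05. Levels and overlap between the sorts are in nuclear CPM.

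In plain nuclear CPM, increases were shared by the 4 LAP+/OC2+ libraries more evenly than decreases. Fitted log2 differences lie 0.39 lower at the median, so separation in nuclear CPM favours increases. The part of scaling in this contrast was not tested. The sorts did not overlap for 7697 tested genes (58.7%). Of the genes called higher, 4282 had every LAP+/OC2+ library above every LAP+/OC2- library (37.6% of all tested genes were so separated upward), and each single library was above for 98.7 to 99.9%. Of the genes called lower, 2761 were fully separated (21% of all tested genes). LAP+/OC2+ library 1, with the largest mitochondrial share, lay below every LAP+/OC2- library for 73.6% of them, and libraries 2, 3 and 4 for 88.3%, 90.0% and 90.1%.

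The abundant genes of LAP+/OC2- cells were those of LAP+ cells, and the abundant genes of LAP+/OC2+ cells largely were not. Of the 50 most abundant genes, LAP+/OC2- shared 48 with LAP+ and 27 with adult cells. LAP+/OC2+ shared 14 with LAP+/OC2-, 13 with LAP+ and 5 with adult cells.

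The most abundant LAP+/OC2- gene, at chr14:19176277-19191863, is the clearest decrease by level. It stood at 91135, 109208, 107595 and 110101 nuclear CPM in the LAP+/OC2- libraries and at 16275, 12776, 7808 and 4104 in LAP+/OC2+ libraries 1 to 4, with 106527 to 127602 in adult cells. The groups were far apart, and the log2 difference was -3.76 (SE 0.44, edgeR adjusted p = 2.1e-05). Its neighbour at chr14:19141755-19159923 stood at 41262 to 58465 nuclear CPM in LAP+/OC2- and at 6115, 4475, 2888 and 2034 in LAP+/OC2+ libraries (log2 difference -3.96, SE 0.38, edgeR adjusted p = 4.7e-06). Unlike the first gene, it stood at only 349 to 413 nuclear CPM in adult cells, so the decrease covered both a gene kept in adult cells and one low there.

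Genes abundant in adult hepatocytes were lower as a group of transcripts. Of the 50 most abundant in adult cells, 43 were called lower (33.5% of all tested genes were), 0 higher and 7 not called, with a median log2 difference of -2.92 against -0.05 over all tested genes. Their median level in LAP+/OC2+ libraries 1 to 4 was 28.3%, 21.9%, 12.5% and 7.31% of the LAP+/OC2- mean, and their summed share of nuclear counts was 5.95%, 4.77%, 2.99% and 1.73% against 23.9 to 31.4% in LAP+/OC2- libraries. The order of the LAP+/OC2+ libraries was that of their mitochondrial shares, 78.6%, 73.7%, 57.6% and 38.9%; the part of that share in the result was not tested. The 7 genes that were not called stood at 0.921 to 1.94% of the adult level in LAP+/OC2+ and at 0.907 to 1.37% in LAP+/OC2- cells, within the trace described above.

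Among the 50 genes most abundant in LAP+ cells, 47 were lower, 1 was higher and 2 were not called. Of all tested genes, 33.5% were lower and 33.7% higher. The list shared 48 genes with the 50 most abundant in LAP+/OC2- cells, so it was close to a choice by the level in that sort. The 3 exceptions were a gene at chr12:46791528-46794797 that was not called and 2 features of 3 exons on chromosome 10 that led the LAP+/OC2+ libraries. The feature at chr10:15589364-15590220 stood at 25007, 32542, 64447 and 64681 nuclear CPM in LAP+/OC2+ libraries 1 to 4 and at 16167, 11722, 17403 and 17816 in LAP+/OC2- libraries (log2 difference 1.17, SE 0.37, edgeR adjusted p = 0.015). The feature at chr10:15602794-15603649 stood at 32573, 31697, 58140 and 70678 against 26767, 18511, 28790 and 28796 nuclear CPM (log2 difference 0.51, SE 0.35, edgeR adjusted p = 0.21). Both were higher in every LAP+/OC2+ library in nuclear CPM, but the test called only the first. They lie close together with similar lengths, and reads shared between near-identical copies could have been split or dropped in counting, so their separate levels are uncertain. Adult cells held 136 to 182 nuclear CPM of the feature at chr10:15589364-15590220 and 213 to 274 of the other. LAP+ libraries 1 to 4 varied widely, at 2756, 7147, 12283 and 5283 for the first and at 4047, 11800, 19890 and 8735 for the second. The LAP+ means, 6867 and 11118, were below the LAP+/OC2- means, 15777 and 25716, so both sorts averaged above the unsplit cells.

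The share of genes called lower grew with the level in LAP+ cells. These cells were not part of the fit, but they shared 48 of the 50 most abundant genes with LAP+/OC2- cells. Classes by LAP+ level are thus close to classes by LAP+/OC2- level, and the trend is a description. Among genes at 1 to 10 nuclear CPM in LAP+ cells, 31.3% were higher and 25.3% lower. At 100 to 1000 nuclear CPM the shares were 16.9% and 63.5%. Of the 81 genes over 1000 nuclear CPM, 6.17% were higher and 87.7% lower, with a median log2 difference of -2.89. Genes under 1 nuclear CPM in LAP+ cells could pass the count filter only where 1 sort held more of them, so their shares are not read further.

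**Figure D2:**
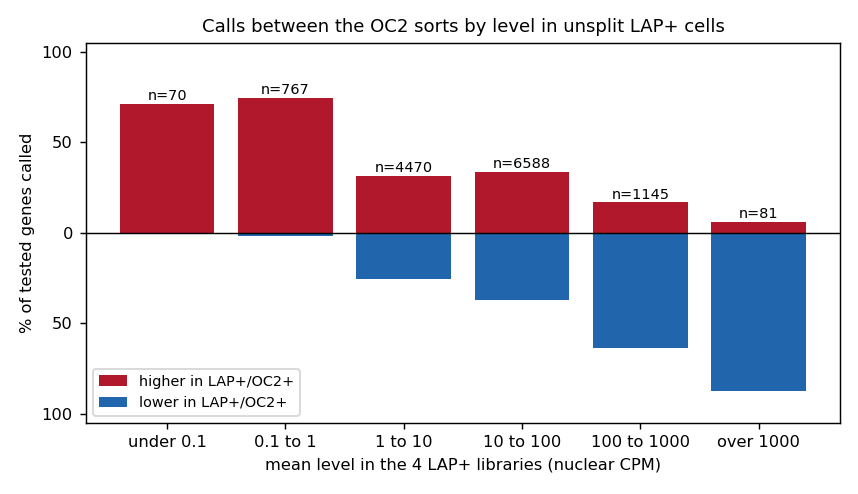
Percent of tested genes called higher (bars upward) and lower (bars downward) in LAP+/OC2+ than in LAP+/OC2- cells, by mean level in the 4 LAP+ libraries (nuclear CPM); n is the number of genes tested. Lower calls go from 25.3% at 1 to 10 nuclear CPM to 87.7% over 1000.

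On the TMM scale, genes of 1 exon and of over 10 exons were more often higher than lower, and genes of 2 to 10 exons more often lower. Of all tested genes, 33.7% were higher and 33.5% lower. Large classes stayed near these shares, with 36.7% higher and 30.7% lower at 11 to 20 exons, and 31.4% and 36.4% at 6 to 10. The balance of calls depends on scaling, so such small departures are not read further. Genes of 1 exon were higher in 43.5% and lower in 24.7% of 664 tested. Features shorter than 200 nt were higher in 46.8% and lower in 22.2% of 158. Together such features took less of nuclear counts, 0.1785 to 0.2831% in LAP+/OC2+ and 0.3899 to 0.4104% in LAP+/OC2- libraries. Features of low count could pass the count filter through 1 sort alone, so their shares of calls are not read further. Genes of over 40 exons were higher in 38.2% and lower in 27% of 267, and the 130 features in the class of greatest exon length were higher in 48.5% and lower in 20.8%. Genes of 3 to 5 exons were higher in 28.1% and lower in 38.0% of 2440. By autosome and X chromosome, the share higher ranged from 30.1% on chromosomes 4 and 6 to 39.2% on chromosome 19, around the 33.7% of all tested genes.

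The 2 named genes that rose were at or near 0 in LAP+/OC2- cells. ENSRNOG00000056387, a feature of 84 nt and 1 exon at chr8:79679458-79679541, stood at 65.7, 55.3, 32.1 and 14.7 nuclear CPM in LAP+/OC2+ libraries 1 to 4 and had 0 counts in all 4 LAP+/OC2- libraries. It was at least 213-fold higher, taking 3 counts per library as the floor; the fitted log2 difference of 11.24 (SE 0.90, edgeR adjusted p = 9.8e-06) depends on the prior count. LAP+ and adult libraries held 0 to 0.201 nuclear CPM. Its level across LAP+/OC2+ libraries followed the order of mitochondrial share, whose part was not tested.

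ENSRNOG00000053656, a gene of 8 exons at chr4:163628640-163649637, stood at 89.2, 130, 63.8 and 33.5 nuclear CPM in LAP+/OC2+ libraries and at 0, 0.0632, 0 and 0 in LAP+/OC2- libraries. The single LAP+/OC2- value rests on 1 count. Its log2 difference was 11 (SE 0.68, edgeR adjusted p = 3.2e-07). In LAP+ libraries 1 to 4 it stood at 0.203, 0, 0.342 and 4.58 nuclear CPM, so library 4 was above the other LAP+ libraries.

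The 2 named genes that fell were low in every LAP+/OC2+ library. ENSRNOG00000046365, of 10 exons at chr20:29009330-29029905, stood at 4.17, 3.43, 2.1 and 0.793 nuclear CPM in LAP+/OC2+ and at 62.4, 147, 57.5 and 71.4 in LAP+/OC2- libraries (log2 difference -5.59, SE 0.45, edgeR adjusted p = 1.5e-06). ENSRNOG00000038948, of 80 exons at chr7:27369853-27552078, stood at 6.78, 2.14, 4.5 and 2.77 against 70.1, 149, 58.6 and 69.7 nuclear CPM (log2 difference -4.87, SE 0.38, edgeR adjusted p = 1.2e-06). Both were highest in LAP+/OC2- library 3, at about the same level, and in both the sorts did not overlap.

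A set of genes was abundant in LAP+/OC2+ cells and far lower in LAP+/OC2- cells. These 55 genes on 16 chromosomes were selected by the contrast itself (called higher, log2 difference of at least 5, at least 100 nuclear CPM in LAP+/OC2+), so their levels in the OC2 sorts are a description; the values just inside and just outside the threshold were 5.05 and 5.0. Together they took 7.03%, 10.1%, 6.47% and 4.43% of nuclear counts in LAP+/OC2+ libraries 1 to 4, and 0.0344 to 0.0735% in LAP+/OC2- libraries. LAP+/OC2+ library 2 was highest for 38 of them and library 4 lowest for 50.

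The unsplit LAP+ libraries were not used in that selection, and library 4 held the most of these transcripts. LAP+/OC2- values were used in the selection, and choosing genes low there favours LAP+ libraries that stand above them. Comparisons of LAP+ with LAP+/OC2- levels in these genes are therefore descriptions. The summed level was 1058, 652.4, 809.6 and 11363 nuclear CPM in LAP+ libraries 1 to 4. Library 4 was above every LAP+/OC2- library for 49 of the 55 genes and above every other LAP+ library for 45. The shares of all tested genes for which this held were not taken, so these counts have no background beside them. The median gene stood at 13.2% of its LAP+/OC2+ mean in LAP+ library 4, at 1.29 to 1.64% in the other LAP+ libraries, at 0.82 to 1.24% in LAP+/OC2- libraries and at 0.121 to 0.17% in adult libraries. The other LAP+ libraries also held some members: 8 genes reached 5% of their LAP+/OC2+ mean in LAP+ library 1 and 2 in library 3, against 42 in library 4. The gene at chr10:75160690-75171774 stood at 101, 35.3, 74.3 and 75.4 nuclear CPM in LAP+ libraries 1 to 4, with library 4 within the others.

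For 6 of the 55 genes LAP+ library 4 was not above every LAP+/OC2- library. The 1-exon gene at chr1:221158098-221158792 stood at 6052, 6073, 3894 and 2935 nuclear CPM in LAP+/OC2+ libraries, at 79.8, 154, 94.9 and 106 in LAP+/OC2- libraries and at 88.0 in LAP+ library 4. The gene at chr6:75793960-75874235 stood at 2140, 1949, 1064 and 800 in LAP+/OC2+ libraries, at 10.9 to 26.8 in LAP+/OC2- libraries and at 21.4 in LAP+ library 4. For both, LAP+/OC2+ libraries 1 and 2, with the largest mitochondrial shares, were higher than libraries 3 and 4. Some of the other 49 genes did the same, as at chr8:117930546-117932518 (4695, 7458, 4423 and 2298 nuclear CPM). Others did not, as at chr16:75497832-75530517 (11021, 23217, 13808 and 9286) and chr20:6397022-6410191 (59.4, 75.5, 131 and 197). Genes of either kind were not counted, and the part of mitochondrial share was not tested.

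**Figure D3:**
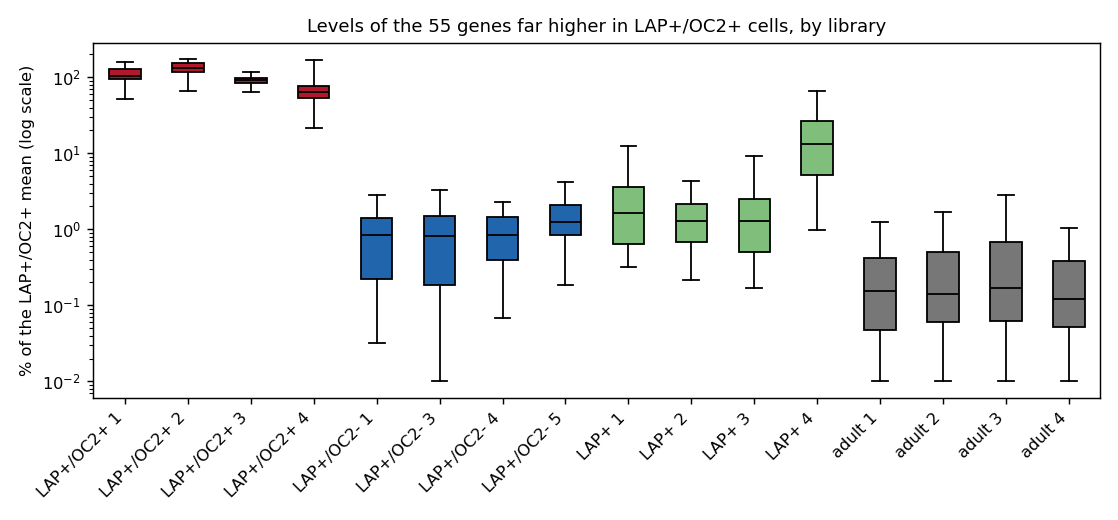
Level of each of the 55 genes far higher in LAP+/OC2+ cells, as percent of its LAP+/OC2+ mean (log scale), in 16 libraries named by group and replicate on the horizontal axis; boxes are quartiles with the median, whiskers reach the extremes, and values under 0.01% are drawn at 0.01%. The median is 13.2% in LAP+ library 4 and 0.121 to 1.64% in the other LAP+, the LAP+/OC2- and the adult libraries.

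Some abundant increases lay next to each other. Runs of 4 or more neighbouring tested genes called in the same direction, no more than 500000 nt apart, held 651 of the 4428 genes called higher (14.7%) in 133 runs and 622 of the 4389 called lower (14.2%) in 134 runs; these counts were not set against chance. Runs were formed from the calls, so their levels are descriptions; those described are among the 2 longest and the 6 with the largest median in each direction.

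The run with the largest median increase held 7 genes at chr16:75338052-75855745, with a median log2 difference of 6.46. Its summed level was 15603, 28708, 18384 and 12760 nuclear CPM in LAP+/OC2+ libraries 1 to 4 and 39.3, 32.7, 45.5 and 136 in LAP+/OC2- libraries. LAP+ library 4 held 3256 and the other LAP+ libraries 72.3 to 104. Its most abundant member, at chr16:75497832-75530517, alone stood at 11021, 23217, 13808 and 9286 nuclear CPM in LAP+/OC2+ and at 6.07 to 38.5 in LAP+/OC2- libraries (log2 difference 9.44, SE 0.83, edgeR adjusted p = 2.6e-06). Features of this run overlap in position in 2 cases, where the counting may not separate them.

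A run of 4 genes at chr2:189997129-190100276 shared the pattern. It summed to 10165, 15814, 10484 and 7137 nuclear CPM in LAP+/OC2+ and to 18.8, 28.3, 38.7 and 110 in LAP+/OC2- libraries, with 2560 in LAP+ library 4. A run of 5 genes at chr11:67308943-67529051 summed to 1662, 1455, 1168 and 1018 against 6.99, 4.8, 9.23 and 27.2 nuclear CPM, with 743 in LAP+ library 4. In all 3 runs LAP+/OC2- library 5 was the highest of its sort.

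A run of 4 genes on chromosome 3, at chr3:72329967-72457649, differed in the unsplit cells. It summed to 5387, 8573, 4647 and 3338 nuclear CPM in LAP+/OC2+ and to 295, 183, 197 and 194 in LAP+/OC2- libraries. LAP+ libraries lay between 326 and 359, with library 4 at 327. Most of the LAP+/OC2+ counts came from the gene at chr3:72385666-72389276, at 3901, 6488, 3166 and 2058 against 3.29 to 7.22 nuclear CPM (log2 difference 9.06, SE 0.50, edgeR adjusted p = 2.3e-07). It stood at 184, 63.4, 140 and 123 nuclear CPM in LAP+ libraries 1 to 4, so all 4 unsplit libraries were above every LAP+/OC2- library for it.

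The longest runs of increases were on chromosome 17 and were made mostly of 1-exon genes. The run of 14 genes at chr17:44527421-44815995, 11 of them of 1 exon, summed to 97.0, 114, 141 and 111 nuclear CPM in LAP+/OC2+ and to 24.4, 15.2, 15.0 and 18.2 in LAP+/OC2- libraries, with a median log2 difference of 2.36. The run of 13 genes at chr17:43734461-43948223, 9 of them of 1 exon, summed to 136, 174, 242 and 227 against 70.4, 42.9, 48.7 and 54.2 nuclear CPM, with a median of 1.76. Here LAP+/OC2+ library 3 was the highest, unlike the runs on chromosomes 16 and 2, and LAP+ library 4 stood within the other LAP+ libraries. Features of the first run overlap in position in 4 cases.

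The runs of decreases included the most abundant transcripts. The 4 genes at chr14:19028810-19191863 summed to 149159 to 153718 nuclear CPM in LAP+/OC2- libraries and to 22451, 17305, 10738 and 6155 in LAP+/OC2+ libraries 1 to 4. The 4 genes at chr2:181987217-182056673 summed to 25517, 39420, 39560 and 38918 against 5620, 4118, 2694 and 1631 nuclear CPM. The 8 genes at chr1:80549043-80689171 summed to 6921, 8604, 7997 and 7681 against 2658, 2246, 1591 and 954 nuclear CPM. In each of these 3 runs the LAP+/OC2+ libraries fell in the order 1, 2, 3, 4, the order of their mitochondrial shares.

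A run of 5 features at chr6:133788815-133798358, each of 1 exon, was lower and was also nearly absent from adult cells. It summed to 46.2, 41.6, 35.8 and 36.4 nuclear CPM in LAP+/OC2- libraries, to 4.69, 2.57, 3.6 and 1.98 in LAP+/OC2+ libraries and to 0.153 to 0.62 in adult libraries, with 42.5 to 51.9 in LAP+ libraries. The 5 genes beside it, at chr6:133552821-133770779, summed to 2422, 1674, 1399 and 1466 in LAP+/OC2- and to 698, 655, 350 and 726 nuclear CPM in LAP+/OC2+ libraries, with 12.4 to 15.9 in adult libraries. LAP+/OC2+ library 1 was the highest and library 4 the lowest in the first of these runs, as in the runs on chromosomes 14 and 2, whereas library 4 was the highest and library 3 the lowest in the second.

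**Figure D4:**
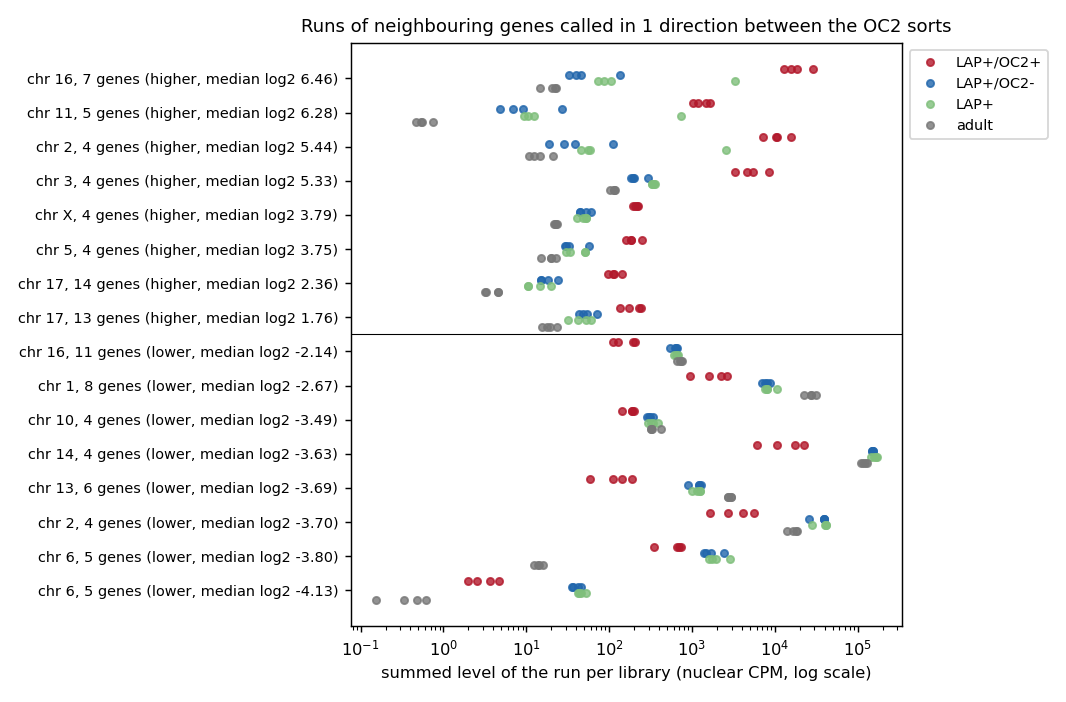
Summed level per library (nuclear CPM, log scale on the horizontal axis) of 16 runs of neighbouring genes called in 1 direction, each on its own row with its chromosome, number of genes and median log2 difference; every point is a library, coloured by group, with runs called higher in LAP+/OC2+ above the line and runs called lower below it. LAP+ library 4 lies apart from the other LAP+ libraries in the runs on chromosomes 16, 11 and 2 at the top, at 3256, 743 and 2560.

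Few genes were present in 1 sort and at 0 in the other. In LAP+/OC2+ cells, 22 features had at least 3 counts in every library and 0 in all LAP+/OC2- libraries, 8 of them with 1 exon and 16 at 0 in every adult library. Their median level was 3.15 nuclear CPM, and 19 had a count in some LAP+ library. The reverse held for 57 features, none above 3.18 nuclear CPM, a level at which the shallower LAP+/OC2+ libraries would give few counts.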

How the data were processed

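The authors deposited one table of counts per sample; per the submitters' processing notes the tools named are STAR 2.5.2b, featureCounts (Subread 1.5.2), Trimmomatic 0.36 and bcl2fastq 2.17. Sorted-cell libraries used the NEBNext Ultra RNA kit, per the labels' protocols. The sources used here give no build, annotation release or strand setting, so overlapping, antisense and near-identical genes are uncertain. Mitochondrial features (35) were set aside; the remaining counts were tested with edgeR 4.0.16 (R 4.3.3; TMM, filterByExpr, robust quasi-likelihood, 8 libraries) after a check on simulated data, and adjusted by Benjamini-Hochberg over 13121 genes. Single values were compared by exact permutation (scipy 1.17.1). Total counts per library were 7871347 to 16874438. Fixed gene lists and markers could not be applied, since identifiers could not be paired with symbols. Named genes are the 2 largest increases and 2 largest decreases among called genes with at least 10 nuclear CPM in the higher sort and no overlap between sorts. The libraries, lists and rules were chosen with earlier results of these data known. Alternatives used limma 3.58.1, DESeq2 1.42.0, other scalings and filters, and left-out libraries.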

Additional observations from a re-analysis of the deposited data

Results flagged for a closer look

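In each of the following, 1 library of 4 stood apart by Dixon's test at the 95% level. Of the 55 groups checked, 10 did so, where chance flags about 1 in 20 independent groups. These groups share libraries and in part genes, so that rate is only a rough guide. In LAP+/OC2- cells, ENSRNOG00000053656 was highest in library 3, at 0.0632 nuclear CPM (1 count). The other libraries of that sort held 0, which fixes the outcome of the test, so this flag carries no information. ENSRNOG00000046365 and ENSRNOG00000038948 were also highest there, at 147 and 149 nuclear CPM. LAP+/OC2- library 5 was highest for the run on chromosome 16 from 75338052, at 136 nuclear CPM, and for the summed level of the 55 genes far higher in LAP+/OC2+ cells, at 735. LAP+/OC2- library 1 was highest for the run on chromosome 3 from 72329967, at 295 nuclear CPM, and for the run on chromosome 5 from 159220979, at 57.5. It was lowest for the run on chromosome 2 from 181987217, at 25517 nuclear CPM, and for the run on chromosome 13 from 56598957, at 901. Among unsplit LAP+ libraries, library 4 was highest for the 55 genes, at 11363 nuclear CPM.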

How the results depend on the processing

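Under 21 alternatives no gene called between the sorts was called in the opposite direction. Higher calls numbered 4019 to 4634 and lower calls 3883 to 4740 with each library left out in turn, and 3459 to 5499 and 3001 to 5139 under the others. The lowest count of lower calls came without scaling beyond the nuclear total. The 4 named genes kept direction and call throughout (largest adjusted p by any tool 0.0007). The mitochondrial difference was 51.8 to 65.0 percentage points with 1 library left out, where the smallest p is 0.057. Numbers 1, 3 and 4 occur in both sorts, but same-numbered libraries did not deviate together (correlations -0.20, -0.15 and 0); with the replicate block, 3459 genes were higher and 3352 lower, and 3997 and 3874 in the same 6 libraries without it. The 4 settings no scaling, LAP+/OC2- counts thinned to the LAP+/OC2+ mean, LAP+/OC2+ libraries 1 and 2 both left out, and the 6 libraries without the block were chosen after seeing the data. Alternatives for gene lists were not run, since the lists could not be matched. Depth limits the LAP+/OC2+ libraries most, at 1917734 to 5045098 nuclear counts.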
